A study of Mus musculus with 6 samples.

Results

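In mouse embryonic fibroblasts (MEFs), which are primary cells grown from embryos, induced FLAG-tagged Onecut3 gave 1333 ChIP-Seq regions that were found in all 3 replicates and lay deep inside a protein-coding gene of at least 100 kb. The members were found by merging the peaks of 3 lists wherever they overlapped by 1 bp or more and keeping regions with a peak from every list, on chromosomes 1 to 19 or X, whose midpoint lay inside a protein-coding gene and over 3 kb from every gene end, the longest gene there spanning 100 kb or more. They were 1333 of 5114 shared regions and of 50844 regions in all, and 26.1% of the 5099 shared regions on chromosomes 1 to 19 and X (Wilson 95% interval 25.0% to 27.4%). Another 697 shared regions lay deep inside shorter genes. Because membership rested on a peak being called in every list, the sharing and the presence of a peak are description here and support nothing.

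The libraries came from MEFs of C57BL/6 background that carried Onecut3 in a doxycycline-inducible retroviral system (Retro-X Tet-One). Onecut3-OE cells received doxycycline at 100 ng/mL, and chromatin was precipitated with anti-FLAG antibody in 3 replicates. Onecut3 came from a retroviral transgene, so its level is that of the transgene and not that of a native gene. A FLAG library of uninduced control cells, an input library and an IgG library complete the series and were not analysed here, so signal that the antibody gives without Onecut3 was not subtracted. Whether the replicates were separate cultures is not stated, and the spread between them may be technical.

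ONECUT factors bind DNA through a CUT domain and a homeodomain and are known from liver, pancreas and neurons, where they act with other tissue regulators. Their sites carry a core read as ATCAAT or ATCGAT. Long mammalian genes consist mostly of intron, and introns hold enhancers, start sites of shorter transcripts and genes for noncoding RNAs. Many of the longest genes encode adhesion proteins and channels of neurons, and several lie in chromosomal fragile sites.

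Of the 1333 members, 16 (1.20%) overlapped a window around an annotated transcription start inside the long gene, and sequence could be read in those windows only. Not every such member reached the start itself. A window ran from 250 bases before to 50 bases after a start in RefSeq (GRCm38.p6). The 16 members touched 17 windows, of which 9 belonged to a shorter transcript of the gene that held the member, 7 to a long noncoding RNA (lncRNA) and 1 to another protein-coding gene, Gpr1 inside Zdbf2. ATCAAT on either strand was present in 9 of the 17 windows (52.9%), and ATCGAT, which shares no copy with it, was present in 0 of the 17. Over all 32585 windows on chromosomes 1 to 19 and X the share with either hexamer was 8.38%, with 7.51% for ATCAAT and 0.933% for ATCGAT. Among the 429 windows that any shared region overlapped, which include the 17, 166 (38.7%) held one of the hexamers. The shares there were 27.3% for ATCAAT and 11.4% for ATCGAT. The AP-1 motif TGANTCA stood in 3 of the 17 windows (17.6%), against 5.13% of the 429 and 7.85% of all windows. The TEAD motif GGAATG stood in 0 of the 17, against 12.4% of the 429 and 14.6% of all windows. Such matches are a description of the letters and not of bound sites, and the windows and their genes were chosen after the lists had been seen.

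The 250 bases before the start are shown for the 6 windows with a hexamer there, 5′ to 3′ along the strand of the transcript. ATCAAT or its reverse complement ATTGAT is in capitals.
Prickle2, chr6:92481393-92481642, minus strand: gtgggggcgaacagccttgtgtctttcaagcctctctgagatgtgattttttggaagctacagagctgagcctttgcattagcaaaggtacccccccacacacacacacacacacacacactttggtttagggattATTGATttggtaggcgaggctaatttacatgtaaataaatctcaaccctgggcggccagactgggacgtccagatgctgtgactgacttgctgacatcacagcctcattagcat
Ahcyl2, chr6:29853491-29853740, plus strand: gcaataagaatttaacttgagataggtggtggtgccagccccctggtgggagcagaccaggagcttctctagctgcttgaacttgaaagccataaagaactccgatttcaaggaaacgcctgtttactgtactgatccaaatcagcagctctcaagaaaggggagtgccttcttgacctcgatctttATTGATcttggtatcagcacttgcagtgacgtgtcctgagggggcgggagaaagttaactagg
Gm31348 in Tnr, chr1:159784084-159784333, minus strand: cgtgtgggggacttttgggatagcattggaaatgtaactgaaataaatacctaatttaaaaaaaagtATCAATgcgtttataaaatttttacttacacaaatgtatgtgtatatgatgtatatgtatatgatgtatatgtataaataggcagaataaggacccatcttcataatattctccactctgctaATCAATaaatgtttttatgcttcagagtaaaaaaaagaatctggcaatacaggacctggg
Eps15, chr4:109342806-109343055, plus strand: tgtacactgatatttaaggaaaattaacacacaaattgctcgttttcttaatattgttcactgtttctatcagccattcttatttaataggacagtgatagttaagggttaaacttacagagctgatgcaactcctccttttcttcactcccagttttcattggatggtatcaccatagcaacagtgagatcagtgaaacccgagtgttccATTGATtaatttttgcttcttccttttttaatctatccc
Gm32573 in Vit, chr17:78550747-78550996, minus strand: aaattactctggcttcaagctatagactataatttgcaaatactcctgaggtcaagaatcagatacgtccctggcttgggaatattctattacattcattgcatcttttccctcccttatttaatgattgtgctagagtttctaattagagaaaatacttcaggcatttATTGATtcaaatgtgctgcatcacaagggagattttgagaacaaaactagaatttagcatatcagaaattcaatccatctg
A930019D19Rik in Ralgapa2, chr2:146259036-146259285, plus strand: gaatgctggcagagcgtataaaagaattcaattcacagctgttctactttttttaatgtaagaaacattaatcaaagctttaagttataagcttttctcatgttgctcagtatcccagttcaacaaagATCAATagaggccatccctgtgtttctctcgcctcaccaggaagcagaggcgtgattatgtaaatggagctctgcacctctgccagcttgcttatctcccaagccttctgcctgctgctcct

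At the window of Prickle2, a planar cell polarity protein, the capital hexamer lay 18, 13 and 2 bp from the peak summits of replicates 1, 2 and 3, and the fold over the control was 5.04, 7.35 and 5.30. Ahcyl2 encodes a relative of the IP3 receptor-binding protein IRBIT. Its summits lay 5, 91 and 9 bp from the hexamer with folds of 6.44, 4.35 and 4.84. In Tnr, the gene of the matrix protein tenascin-R, the start belongs to the lncRNA gene Gm31348 on the minus strand, and the summits were 7, 1 and 2 bp from the nearer of its pair of hexamers. Eps15, an endocytic adaptor, had summits 99, 84 and 32 bp away. Those of replicates 1 and 2 lay 63 and 48 bp after the start, outside the bases shown. The windows in Vit, the gene of a matrix protein, and in Ralgapa2, the gene of a Ral GTPase-activating subunit, had distances of 21, 57 and 71 bp and of 5, 36 and 55 bp. Over the 9 windows with a hexamer the median distance in a window ran from 2 to 84 bp with a median of 19 bp, and it was at most 50 bp in 7 of the 9. Single distances reached 399 bp, at the summit of replicate 2 in Rcan2. Members had to overlap the window in which the nearest hexamer was sought, so distances were bounded in part by this choice. No distance was computed for windows without the hexamer or for other places, so closeness was not tested.

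The fold is the value that the authors' peak caller gave at the summit, the ChIP signal plus 1 divided by the background plus 1. It depends on the depth of both libraries, which the lists do not give, so folds in long and shorter genes were compared within a list. Mean folds over the 3 lists, given for some members, were not scaled for depth, and differences between replicates at a member may include it. The lists held 31600, 12856 and 24822 peaks, of which 33.6%, 71.0% and 47.7% had a q-value (the p-value adjusted by the caller) of at most 0.05. Every peak had a -log10 p of at least 2.00. For 100.0% of members the whole-number pileup of fragments could be solved from the fold and p in replicates 1 and 3, but only for 1 member (0.0750%) in replicate 2, so pileups are given for replicates 1 and 3.

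Most members were modest peaks. Their median fold was 3.94, 4.18 and 3.91 in replicates 1, 2 and 3, with ranges of 1.45 to 22.7, 1.39 to 18.9 and 1.51 to 20.7. The median pileup was 14 fragments in replicate 1 and 13 in replicate 3. A q of at most 0.05 was reached in all 3 lists by 746 members (56.0%) and in none by 46, and 87 (6.53%) had a fold of at least 5 in all 3. The median width was 400 bp (214 to 1099), and the summits of the 3 replicates lay within 100 bp of each other in 941 members (70.6%). The rank of the folds was only partly kept between lists, with Spearman rank correlations of 0.446 between replicates 1 and 2, 0.435 between 1 and 3 and 0.422 between 2 and 3 over the 1333 members, which share 1 input control by their peak names.

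With all called peaks used, members differed little in density and median fold from the shared regions deep inside shorter genes. Strong regions were sparser in long genes. A fold of at least 5 in all 3 lists was reached by 6.53% of members, against 9.61% of the shared regions in shorter genes. Deep interior, meaning sequence inside a protein-coding gene and over 3 kb from every gene end, came to 595 Mb in long genes and 319 Mb in shorter ones, with 2.24 members per Mb in long genes and 2.18 shared regions per Mb in shorter genes. The ratio was 1.03, with an exact interval for counting error of 0.935 to 1.13. All peaks, shared or not, numbered 13.9, 5.60 and 10.8 per Mb in long genes in replicates 1, 2 and 3, against 13.0, 5.46 and 10.4 per Mb in shorter genes. The ratio of long to shorter genes was 1.04 ± 0.0242 (SD, n = 3 lists), above 1 in 3 of 3 lists, with p = 0.25 in an exact two-sided sign-flip permutation test, which cannot give less than 0.25 with 3 lists. In all, 8 measures were compared between long and shorter genes, with exact sign-flip permutation p-values from 0.25 to 1, which no adjustment can lower.

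The median fold in shared regions was 3.94, 4.18 and 3.91 in long genes, against 4.02, 4.25 and 3.99 in shorter genes. Each list thus gave a slightly lower value in long genes, and the difference was -0.0769 ± 0.00481 (SD, n = 3 lists; exact sign-flip permutation p = 0.25). The share of deep peaks that were shared was 16.2%, 40.2% and 20.9% in long genes, against 16.9%, 40.4% and 21.1% in shorter genes. The difference was -0.322 ± 0.276 percentage points (SD, n = 3 lists, exact sign-flip permutation p = 0.25). Sharing is what the rule used, so this difference and its p are description and support nothing. A q of at most 0.05 was reached by 73.7%, 84.0% and 77.7% of members, against 74.6%, 85.8% and 81.2% of the shared regions in shorter genes. The median fold of unshared peaks had a difference of 0 in each list, at 3.03, 3.62 and 3.18 in both places. Both densities turned to the other side of 1 among strong peaks, where the ratio of members to shared regions of shorter genes per Mb became 0.651 for peaks with a -log10 q of 5 or more and 0.696 for peaks with a fold of 5 or more. For all peaks it was 0.867 and 0.883 under the same limits, and the median fold was then higher in long genes, by 0.18 and 0.12. No interval for counting error is given for the ratios under these limits. With regions over 10 kb from gene ends, the ratios were 0.943 for members and 0.987 for all peaks, and the difference in median fold was 0.00897.

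The member with the highest mean rank of fold lay in Stab2, the gene of the scavenger receptor stabilin-2 of sinusoidal endothelium, at chr10:86845148-86845850 (GRCm38). Its fold was 22.7, 18.9 and 20.7 in replicates 1, 2 and 3, with pileups of 74 fragments in replicate 1 and 64 in replicate 3 over backgrounds of 2.30 and 2.14, the lowest that the caller used. It stood well apart from the next members in fold but lay only 4.3 kb from the nearest gene end, against a median of 59.5 kb over all members. Arhgap26, a GTPase-activating protein of the cytoskeleton, held a member with folds of 12.7, 10.6 and 12.2, and Hip1, which links clathrin-coated pits to actin, 1 with folds of 11.8, 13.3 and 10.5. Cnih3, an AMPA receptor auxiliary protein, had folds of 9.39, 11.7 and 11.8 at its member. Pkp4, a plakophilin of cell junctions, had 12.1, 10.8 and 9.55. These 5 were the members whose mean fold was above 10.

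**Figure D1:**
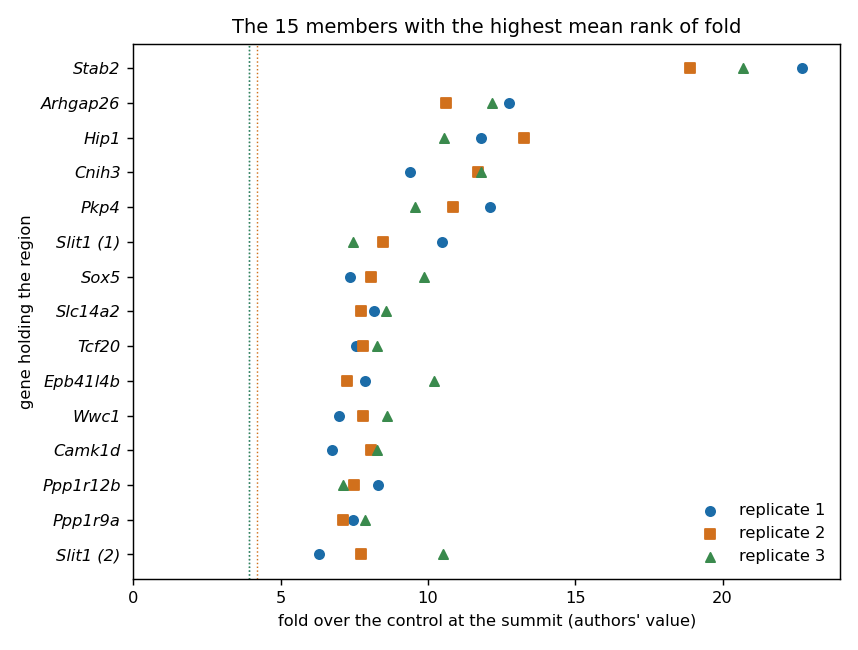
Fold over the control (authors' value, x axis) in each of the 3 replicates for the 15 members with the highest mean rank of fold, named by the gene that holds them. Dotted lines are the median fold of all 1333 members in each replicate. Every point lies above those medians, and Stab2, at 18.9 to 22.7, lies beyond all others.

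The other 10 of the first 15 had mean folds between 7.48 and 8.80. Slit1, a secreted ligand of Robo receptors in axon guidance, held 2 of them, at chr19:41651650-41652346 with folds of 10.5, 8.47 and 7.46 and at chr19:41654788-41655297 with folds of 6.31, 7.72 and 10.5. Slit1 held another member, 0.529 kb from the midpoint of the region at 41654788, with folds of 3.58, 4.91 and 4.55. Sox5, a transcription factor of cartilage and neurons, spans 954 kb and held its strongest member 439 kb from the nearer gene end, with folds of 7.33, 8.07 and 9.87. Wwc1, the Hippo pathway protein KIBRA, had 6.96, 7.79 and 8.60, and the kinase gene Camk1d had 6.75, 8.07 and 8.28. The remaining ones lay in Slc14a2 (a urea transporter), Tcf20 (a transcriptional coregulator), Epb41l4b (a FERM domain protein), Ppp1r12b (a subunit of myosin phosphatase) and Ppp1r9a (the actin-binding protein neurabin). Ppp1r9a differed from the rest in its background, with a pileup of 54 over 6.39 in replicate 1 and of 53 over 5.86 in replicate 3. Its folds of 7.44, 7.12 and 7.88 therefore stood on more fragments than those of its neighbours in rank.

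Of the 2427 protein-coding genes of at least 100 kb, 811 held a member, which is 33.4% of them. The share with at least 2 members was 12.7% (308 genes) and that with at least 5 was 0.948% (23 genes). A single member was found in 503 genes, 2 in 178, 3 in 80, 4 in 27, 5 in 16, 6 in 4, 7 in 2 and 8 in 1. Across the deep interior of long genes, 13145 regions had a peak in any list, of which 9660 (73.5%) came from 1 list, 2152 (16.4%) from 2 and the 1333 members (10.1%) from 3.

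The gene with the most members was Kalrn, which encodes a guanine nucleotide exchange factor of dendritic spines and spans 604 kb on chromosome 16. Its 8 members lay 18.8, 116, 117, 205, 238, 303, 303 and 405 kb from the start, so that 2 pairs were close neighbours, 0.754 and 0.825 kb apart. The strongest, at chr16:34456341-34457200, had folds of 6.96, 7.51 and 6.05. The member nearest the start differed most between replicates, with folds of 3.22, 7.72 and 5.41. In all, the lists held 20, 14 and 19 peaks in Kalrn. Without replicate 2, whose list is the shortest, 2509 regions in 1175 genes met the rule and Macrod2 led with 15. With q up to 0.05 in every list, 4 members were left in Kalrn and Magi2 led with 6, and with a fold of 5 or more in every list Kalrn had 1.

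Zfhx3, a zinc finger homeobox transcription factor, had 7 members between 258 and 629 kb from its start and none in the first 258 kb. Its folds were even, the highest mean being 4.69 with 3.85, 5.20 and 5.01 in the replicates. Magi2, a scaffold protein of synapses and cell junctions, also had 7, spread over 1485 kb from 9.03 to 1344 kb after its start. The strongest of them had folds of 6.96, 5.01 and 6.69. Without replicate 2, Magi2 had 13 members. With q up to 0.05 in every list, Zfhx3 kept 4 members and Magi2 6. With a fold of 5 or more in every list they kept 0 and 2.

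Genes with 6 members were Psd3, an exchange factor for ARF6, Cdk14, a cyclin-dependent kinase of Wnt signalling, Slit3, another Robo ligand, and Prkg1, the cGMP-dependent protein kinase. The member of Cdk14 with the highest mean fold had 6.96, 5.29 and 6.05 in the replicates. That of Slit3 had 6.36, 6.68 and 3.50. Folds in Prkg1, on chromosome 19, stayed between 3.34 and 5.15 over all 6 members and 3 replicates, and without replicate 2 this gene had 10 members. Among the 16 genes with 5, the 3 with the highest density are named. Grk5 (a kinase of G protein-coupled receptors) and Ap3b1 (a subunit of the AP-3 adaptor) spanned 206 and 207 kb. They had 25.7 and 24.8 members per Mb, against 2.24 over all long genes, and Frmd4b (a FERM domain protein) had 15.4. Grk5 lies on chromosome 19, where long genes held 6.77 members per Mb. With q up to 0.05 in every list, Psd3 kept 2 members, Cdk14 3, Slit3 4 and Prkg1 5, and Grk5 kept 3, Ap3b1 2 and Frmd4b 3. With a fold of 5 or more in every list, Cdk14 and Ap3b1 kept 1 each and Psd3, Slit3, Prkg1, Grk5 and Frmd4b 0. The best member of Ap3b1 had folds of 6.36, 5.85 and 6.37.

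**Figure D2:**
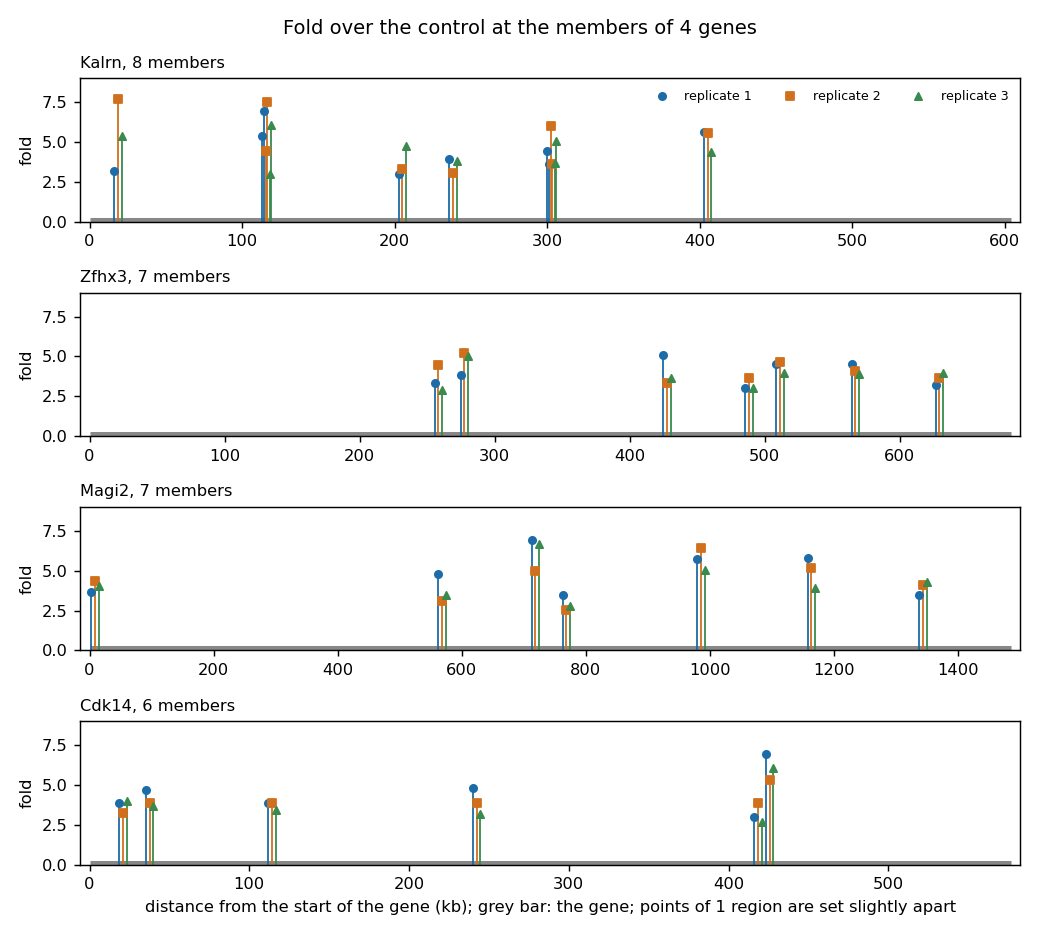
Fold over the control (y axis) at each member of Kalrn, Zfhx3, Magi2 and Cdk14 against its distance from the start of the gene in kb (x axis), with 1 point per replicate and a grey bar for the gene. The 8 members of Kalrn include 2 close pairs near 116 and 303 kb, and the 7 of Zfhx3 all lie beyond 258 kb.

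Members of 1 gene were mostly far apart. The 522 neighbouring pairs had a median spacing of 54.6 kb between midpoints, with 56 pairs within 5 kb and 78 (14.9%) within 10 kb. After the pair in Slit1, the closest were in Atp10b, a phospholipid flippase gene, at 0.595 kb, and in Farp1, a guanine nucleotide exchange factor gene, at 0.609 kb. These pairs were named after their spacing was seen. Such pairs share neighbouring DNA and are not independent sites.

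Longer genes held a member more often but at a lower density. The share of genes with a member was 25.1% (361 of 1437) at 100 to 200 kb, 39.2% (250 of 638) at 200 to 400 kb, 56.3% (143 of 254) at 400 to 800 kb and 58.2% (57 of 98) at 800 kb and more. Members per Mb over the same 4 classes were 2.59, 2.51, 2.35 and 1.12. All peaks showed the same order at the top, with 11.0 ± 4.21, 10.9 ± 4.57, 9.92 ± 4.05 and 7.51 ± 3.67 per Mb (SD, n = 3 lists), a spread that includes the different number of peaks in each list. Within a list, the density of peaks in genes of 800 kb and more was 0.739, 0.563 and 0.685 times that in genes of 100 to 200 kb in replicates 1, 2 and 3. The mean was 0.662 ± 0.0900 (SD, n = 3 lists), below 1 in 3 of 3 lists, with an exact sign-flip permutation p of 0.25, the smallest possible. The ratio for members was 0.433. Without chromosomes 19 and X these ratios were 0.667 ± 0.0923 (SD, n = 3 lists) and 0.446. Members per Mb were lower in the longest class than at 100 to 200 kb on 18 of 20 chromosomes, the exceptions being 9 and 12.

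**Figure D3:**
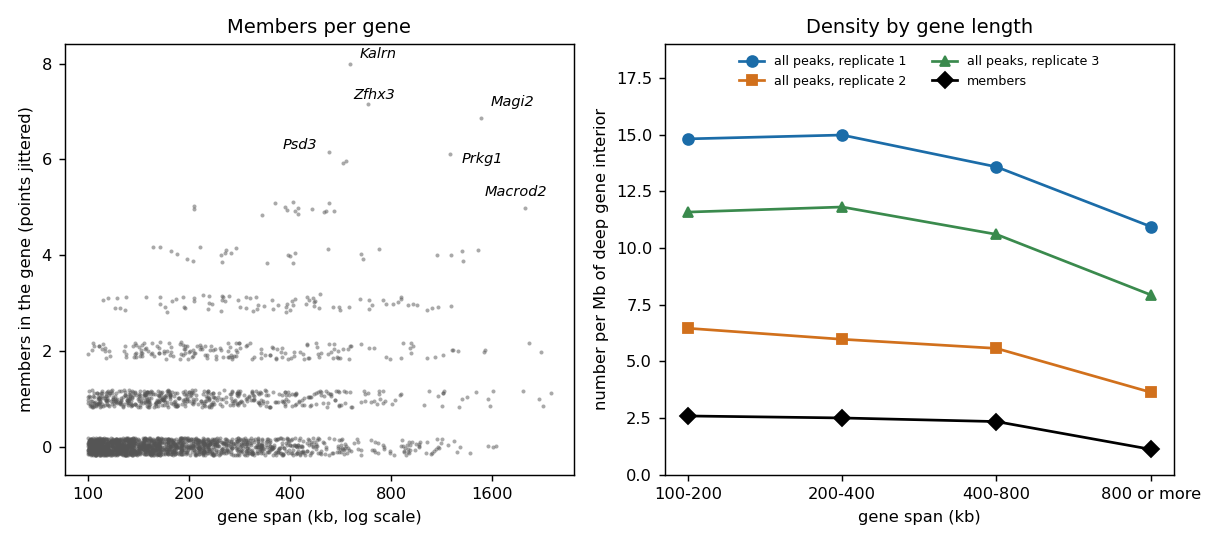
Left, members in each of the 2427 long genes (y axis, points jittered) against gene span in kb (log x axis). Right, members and all peaks of each replicate per Mb of deep gene interior in 4 classes of gene span. Density is lowest in genes of 800 kb and more, at 1.12 members per Mb.

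Within the long genes, members per Mb fell with distance in kb from the start, while by relative position the first and middle parts of the gene were alike. Strand was known for 1864 of the 2427 genes and for the genes of 1051 members. From 3 to 10 kb after the start there were 3.43 members per Mb (44 members), from 10 to 30 kb 3.07 (113), from 30 to 100 kb 2.47 (319), from 100 to 300 kb 2.30 (383) and beyond 300 kb 1.66 (192). All peaks were 1.40, 1.68 and 1.67 times as dense at 3 to 10 kb as beyond 300 kb in replicates 1, 2 and 3, a mean of 1.58 ± 0.161 (SD, n = 3 lists; exact sign-flip permutation p = 0.25). Only genes that long can hold the last class, and genes of 100 to 200 kb cannot hold much of the class from 100 to 300 kb. Distance and gene length therefore cannot be told apart in these classes. Divided by relative position, 366 members lay in the first part of 3 equal parts of the gene, 378 in the middle and 307 in the last. Their densities were 2.41, 2.40 and 2.03 per Mb, so only the last part was sparser.

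Most members were far from either end of the gene. The median distance to the nearest gene end was 59.5 kb (3.03 to 990 kb), and 772 members (57.9%) were more than 50 kb away. More than 1 protein-coding gene held 14 of the members. At the 100 kb limit the member just inside was in Sestd1 (100.3 kb; folds of 8.16, 6.30 and 4.30), and the region just outside was in Vmp1 (99.98 kb; 3.45, 3.45 and 3.45). At the limit of 3 kb from gene ends they were in Vat1l (3.03 kb; 4.56, 3.29 and 3.45) and Mbnl2 (2.88 kb; 5.39, 6.95 and 4.37).

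The density of members varied strongly between chromosomes. Chromosome 19 had 6.77 members per Mb of long-gene interior, against a median of 2.23 on autosomes 1 to 18 (0.717 on chromosome 7 to 3.93 on chromosome 15). It held 99 members, 7.43% of all on 2.46% of the interior, and 46 of its 67 long genes (68.7%) had one. The control background at the summit lay above the genome-wide floor in 85.9% of its members in replicate 1 and 88.9% in replicate 3, against at most 54.9% and 51.2% on any autosome from 1 to 18. The part of this background in the density was not tested. For members the X chromosome was at the other end, with 0.315 members per Mb, 9 members, and 8 of 114 long genes holding one. All peaks on X numbered 6.89, 1.78 and 4.86 per Mb and were not the sparsest in every list, since chromosome 7 had 5.38, 1.94 and 4.30 per Mb. Without chromosome 19 there were 1234 members, and the ratio of long to shorter genes stayed at 1.03.

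**Figure D4:**
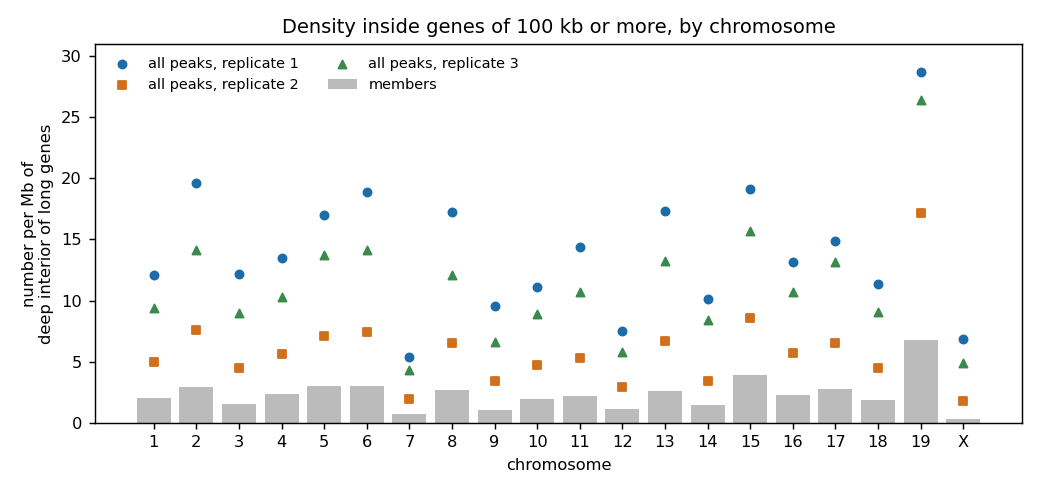
Members (grey bars) and all peaks of each replicate (points) per Mb of deep interior of genes of at least 100 kb (y axis), by chromosome (x axis). Chromosome 19 is highest, with 6.77 members per Mb, and X is lowest for members, with 0.315.

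Long genes were then grouped by function in 7 lists, which overlap in some genes. Each list is described by how many of its genes of at least 100 kb held a member, beside the 33.4% of all such genes, and by its density beside 2.24 members per Mb. Genes on a list were mostly longer than the median of 172 kb over all long genes, so the count expected at the density of the same length class, and of the same chromosome, is set beside each. Lists were chosen with earlier results known, and the values describe them without a test of the list.

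Transcription factor genes had the highest density. A member was present in 34 of 70 (48.6%), with 80 members at 3.75 per Mb, 1.61 times the count at the density of their length classes and 1.55 times that of their chromosomes. Peaks of each replicate were 1.40, 1.44 and 1.47 times as dense as in all long genes, with little spread (1.44 ± 0.0355, SD, n = 3 lists). After Zfhx3, the genes with most members were Bnc2, Glis3 and Nfia with 5 each, all DNA-binding proteins of the zinc finger or nuclear factor I type. Their highest mean folds were 6.48, 5.32 and 5.12. Glis3 is on chromosome 19.

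Regulators of actin, focal adhesion and small GTPases came next. A member was present in 38 of 69 genes (55.1%), with 72 members at 3.45 per Mb, 1.41 times the length expectation and 1.68 times the chromosome expectation. Peak densities were 1.14, 1.45 and 1.25 times those of all long genes, so the lists differed more here (1.28 ± 0.155, SD, n = 3 lists). Kalrn led with 8 members, followed by Palld (the actin-binding protein palladin) with 5, Dst (a linker of the cytoskeleton) with 4 and Arhgap26 with 3.

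Receptors and intracellular signalling genes held a member in 46 of 92 (50.0%) at 2.87 per Mb, 1.37 times the length expectation and 1.14 times the chromosome expectation. Prkg1 had 6, Camk1d and Dgki (a diacylglycerol kinase) had 5 each, and Ppargc1a, the transcriptional coactivator PGC-1 alpha, had 4. Genes of mitosis, chromosome segregation and genome maintenance, the processes that the study addresses, held one in 21 of 44 (47.7%) at 2.87 per Mb, 1.28 times both expectations. Their leading genes were Cdk14 with 6 members, Ccser1 (a coiled-coil protein) with 4, and Cdk5rap2 (a centrosomal protein) and Ttc28 with 2 each. In Cdk5rap2, 1 of the 2 had a q of 0.197, 0.122 and 0.142 in the replicates. At a fold of 5 or more in every list, 4.55% of mitosis and 4.35% of signalling genes held a member, against 3.34% of all long genes. With q up to 0.05 these shares were 34.1%, 37.0% and 22.1%. The shares at a fold of 5 rest on few genes of the 44 and 92. None of these shares is matched for gene span, whose median was 201 kb for mitosis, 279 kb for signalling and 172 kb for all long genes. Peak densities were 1.26 ± 0.0291 (SD, n = 3 lists) times those of all long genes for signalling and 1.24 ± 0.0319 (SD, n = 3 lists) times for mitosis.

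Extracellular matrix and TGF-beta genes were close to all long genes, with 16 of 44 (36.4%) and 2.30 members per Mb. The count was 1.08 times the length expectation and 1.14 times the chromosome expectation. Peak density in these genes was 1.09 ± 0.108 times that of all long genes (SD, n = 3 lists), and replicate 2 was below 1. Without replicate 2 the share was 59.1% of the list, against 48.4% of all long genes, and at a fold of 5 or more in every list 0 of its 44 genes held a member. The genes with most members were Ltbp1, which keeps TGF-beta latent in the matrix, with 5, and Tgfbr3, the TGF-beta co-receptor betaglycan, Adamts12 and Adamts9, both secreted metalloproteinases, with 3 each. The best member of Tgfbr3 had a mean fold of 5.61.

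Fragile site and very large genes had the highest share of genes with a member, 23 of 32 (71.9%), yet only 1.28 members per Mb. At a fold of 5 or more in every list the share of this list was 3.12%, against 3.34% of all long genes. That of transcription factors was 10.0% and that of actin, focal adhesion and small GTPase genes 8.70%. Each of these list shares rests on few genes and is not matched for gene span. The median span of fragile site and very large genes was 1206 kb. Their members were near the count at the density of their length classes (1.02 times) and under that of their chromosomes (0.574 times). The length classes include genes of the list, which had 40.7 Mb of interior, against 111 Mb in all genes of 800 kb and more. Nearness to 1 is thus in part built in. Peaks in fragile site and very large genes were 0.784 ± 0.0486 times as dense as in all long genes (SD, n = 3 lists). Macrod2, an ADP-ribosylhydrolase gene of 1998 kb, had 5 members, or 2.53 per Mb, although the lists held 48, 15 and 33 peaks in it.

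Neuronal and cell adhesion genes had the lowest density. A member was present in 24 of 54 (44.4%), at 0.994 per Mb, 0.691 times the length expectation and 0.451 times the chromosome expectation. Their peaks were 0.682, 0.576 and 0.526 times as dense as in all long genes in replicates 1, 2 and 3 (mean 0.594 ± 0.0795, SD, n = 3 lists). The genes with most members were Magi2 with 7, the teneurin Tenm3 and the neuronal catenin Ctnna2 with 4 each, and the contactin Cntn4 with 3.

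**Figure D5:**
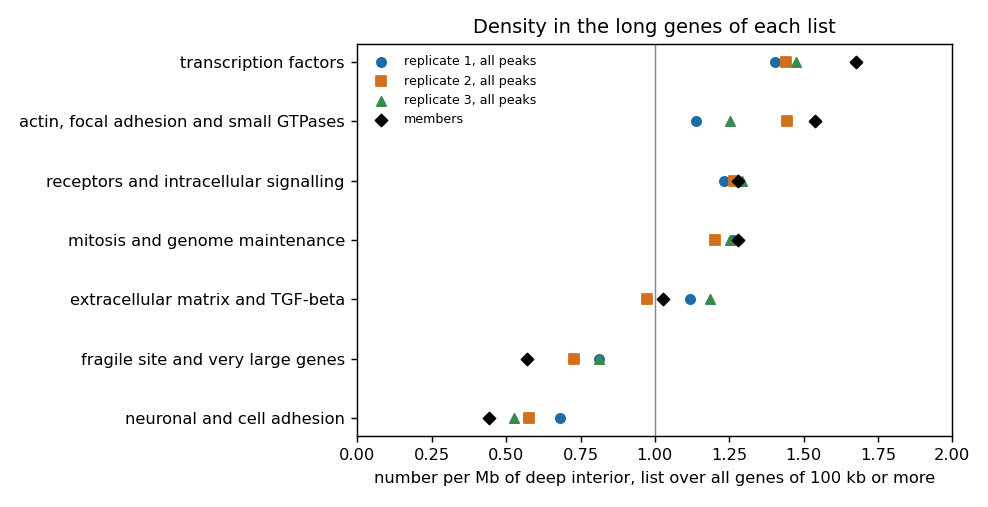
Density of members (black diamonds) and of all peaks of each replicate in the long genes of each list, divided by the density in all genes of 100 kb or more (x axis; the grey line marks 1). Transcription factors lie to the right, at 1.40 to 1.47 for peaks, and neuronal and cell adhesion genes to the left, at 0.526 to 0.682.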

How the data were processed

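ChIP-Seq peaks were taken from the 3 Onecut3-OE FLAG lists deposited by the authors. Control FLAG, IgG and input libraries, and RNA-Seq, were not used here. According to the submitters' processing notes the build was GRCm38 and the tools included MACS2 2.1.0, Bowtie2 2.2.6 and deepTools 3.3.2; their roles are not stated there, but peak calling by MACS is given in the study's methods. Filters on reads were not given in the sources used here. Peak names point to calling per sample with the input as control. For each peak the deposited columns give a summit position, a fold (the ratio of pileup plus 1 to background plus 1), the p-value and q-value as -log10, and a score that the authors' caller made from the p-value. Depth is not given, so long and shorter genes were compared in peak numbers and folds within a list, and mean folds of members over the lists were not scaled for it. Intervals cover counting error only.

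Genes came from RefSeq (GRCm38.p6), with 21631 protein-coding genes on chromosomes 1-19 and X. Strand and start windows came from a RefSeq promoter table that holds 1864 of 2427 long genes. No genome sequence or exon table of this build was used, so the planned share in first introns and the planned motif search at summits were not run, and motifs were searched in start windows. Of 469 list symbols, 3 were not found. Pileups were solved within 0.001 of the deposited -log10 p. Comparisons over the 3 lists used the exact two-sided sign-flip permutation test.

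The members and lists were chosen with earlier results of these data known. Named genes were those of the 15 members with the highest mean rank of fold, the 10 genes with the most members (ties by members per Mb), up to 4 genes a list with the most members, and those nearest the limits. Genes of start windows and close pairs were named after their values were seen. Alternatives were stricter peaks, stricter overlaps, each replicate left out, and other limits of gene length and gene ends. Some genes and details of the samples are not reported here. Scripts were tested on simulated data. The analysis ran in Python 3.11.15 with matplotlib 3.10.9, scipy 1.17.1, pandas 2.3.3 and numpy 2.4.6.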

Additional observations from a re-analysis of the deposited data

How the results depend on the processing

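Samples could not be paired between conditions, because the 3 lists belong to 1 condition. Ratios and differences were taken within each list, so the sign-flip tests were paired by list. Leaving out chromosome 19 or chromosomes 19 and X, and the list expectations by length class and chromosome, were chosen after the lists had been seen. The share in first introns and the motif at members were not computed, for want of exons and a genome.

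Under 2 strict limits, a -log10 q of 5 or more and a fold of 5 or more, members numbered 85 and 87 (17.9% and 19.2% of shared regions). They numbered 746 with q up to 0.05, 858 (16.8%) with a gene length of 200 kb, and 1736 to 2509 with 1 replicate left out (2509 without replicate 2), since only 2 lists then had to share a region. Members were 24.2% of shared regions at 10 kb from gene ends and 32.9% at a gene length of 50 kb. Genes with a member numbered 81 (3.34%) under both strict limits, 537 (22.1%) with q up to 0.05, and 949 to 1175 (39.1% to 48.4%) with 1 replicate left out. They were 450 (45.5%) at 200 kb, 22.7% at 50 kb, 31.1% at both 50% overlap and 10 kb from ends, and 29.4% with summits within 100 bp.

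The density of members, long over shorter genes, was 0.651 and 0.696 under the strict limits and 0.892 at 200 kb, and otherwise moved by less than its counting interval. That of all peaks was 0.867 and 0.883 under the strict limits, 1.01 with q up to 0.05, 0.987 at 10 kb from ends, 1.11 at 50 kb and 0.946 at 200 kb, and 1.03 to 1.05 with 1 replicate left out. The difference in median fold was 0.18 and 0.12 under the strict limits and 0.00897 at 10 kb from ends, which turns its sign. It was -0.0986 with q up to 0.05, -0.132 at 50% overlap, -0.166 with summits within 100 bp, -0.0626 at 1 kb from ends, -0.206 at 50 kb, -0.0560 at 200 kb, -0.109 without chromosome 19, and -0.123 to -0.0190 with 1 replicate left out. The difference in the share of peaks that were shared was -7.77 and -5.97 percentage points under the strict limits, -0.699 at 50% overlap, -0.720 with summits within 100 bp, -0.926 at 10 kb from ends, -2.08 at 50 kb, -1.09 at 200 kb, and -1.004 to -0.144 with 1 replicate left out. Apart from the number of lists that must share a region, the cause of these moves was not tested. Kalrn held most members under 50% overlap, summits within 100 bp and without replicate 1 or 3, but Magi2 led with 6 with q up to 0.05, Macrod2 with 15 without replicate 2, and under the strict limits no gene had more than 2. With 1 replicate left out, the percent of genes with a member ran from 48.1 to 59.3 for neuronal and cell adhesion, 36.4 to 59.1 for matrix and TGF-beta, 52.9 to 71.4 for transcription factors and 75.0 to 81.2 for fragile site genes. With a fold of 5 or more these were 3.70, 0, 10.0 and 3.12.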
